A study of Mus musculus with 16 samples.

Results

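Open chromatin on mouse chromosome 13 was described from ATAC-seq peak lists of prostate organoids, epithelial cultures in which a transposase had inserted sequencing adapters into accessible DNA. The members were all regions on chromosome 13 obtained by merging peaks that overlapped by at least 1 bp over 16 libraries and keeping regions called in at least 2 of them. This gave 3964 of 80352 regions, 4.93% of the genome-wide set. Chromosome 13 was chosen by the genotype difference itself, its lower calls and ranks in SPOPmut organoids, so every genotype value below is a description without a test, and tests are given for dihydrotestosterone (DHT) alone.

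The 4 groups were SPOPmut organoids with 10 nM DHT, SPOPmut organoids with ethanol (EtOH, the solvent), Control organoids with DHT and Control organoids with EtOH, with 4 libraries in each and 24 h of treatment in medium without mEGF. All 16 libraries carried sgNT, and the Control organoids were described by the submitters as normal. The labels do not say which SPOP allele was used, how many organoid lines or mice lay behind each genotype, or whether the 4 libraries in a group are independent cultures, so p-values measure the spread between these libraries, which may be technical. The lists held 58800 to 69644 peaks in SPOPmut with DHT, 60661 to 67005 in SPOPmut with EtOH, 58038 to 63916 in Control with DHT and 57245 to 64521 in Control with EtOH, and read depth is unknown. Of 12 markers of prostate epithelium, 10 had called regions in every library, while Pbsn, the probasin gene of luminal cells, had no region assigned in any. The regions called at 3 endothelial markers summed to 9 to 13 in SPOPmut with DHT, 11 in each SPOPmut library with EtOH, 13 to 16 in Control with DHT and 16 to 18 in Control with EtOH, and those at 3 immune markers to 9 to 12, 7 to 8, 4 to 6 and 7 to 8 in the same order. Those at 5 stromal markers, of which Col1a2 had none, summed to 4 to 7, 5 to 6, 6 to 7 and 8 to 10 in that order, and the part of other cell types in the chromosome 13 values was not tested. In such bulk cultures a region that opens in fewer cells and one that opens less in each cell cannot be told apart. Peak calls and ranks alone also cannot show whether a lower value reflects chromatin or another difference between the cultures, which was not tested.

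SPOP recruits proteins to a cullin-RING ligase that marks them with ubiquitin, and prostate tumours often carry point mutations in its substrate pocket. DHT is the androgen that binds the androgen receptor most strongly in the prostate, and the receptor then binds enhancers and promoters and recruits factors that open chromatin. Mouse chromosome 13 carries genes that bear on this tissue, among them Srd5a1, a steroid 5-alpha-reductase that makes DHT from testosterone, the Hedgehog pathway genes Ptch1, Gli3 and Gas1, and Pde4d, a phosphodiesterase that degrades cyclic AMP.

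Some regions called in Control alone lay over gene starts, among them the one that ranked highest of all. Of 843 RefSeq promoter windows of protein-coding genes on chromosome 13 (250 bases before to 50 after a start), 430 were overlapped by a call in all 16 libraries and 364 by none of the regions. In 10 windows of 9 genes the calls were in all 8 Control libraries and in no SPOPmut library, which is 1.19% of the windows, against 0.654% of all 21263 windows of protein-coding genes. In 1 window, at the gene model Gm46430, they were in all 8 SPOPmut libraries and in no Control library (0.119%, against 0.263%). The 9 genes were Gas1, Mef2c, Zbed3, Isl1, Syk, Epdr1, Fam50b, Marveld2 and Mctp1. The 250 bases upstream of the start are shown for the 5 whose regions ranked highest in the Control lists, 5′ to 3′ on the strand of the gene, from RefSeq GRCm38.p6 (mm10), with CG dinucleotides in capitals.
Gas1 (chr13:60177536-60177785, minus strand): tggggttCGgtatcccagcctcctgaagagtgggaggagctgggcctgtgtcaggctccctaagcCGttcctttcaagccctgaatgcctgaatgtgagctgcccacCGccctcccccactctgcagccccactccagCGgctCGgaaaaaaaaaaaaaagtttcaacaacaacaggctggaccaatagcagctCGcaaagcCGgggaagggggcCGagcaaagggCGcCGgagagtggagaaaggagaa
Mef2c (chr13:83523406-83523655, plus strand): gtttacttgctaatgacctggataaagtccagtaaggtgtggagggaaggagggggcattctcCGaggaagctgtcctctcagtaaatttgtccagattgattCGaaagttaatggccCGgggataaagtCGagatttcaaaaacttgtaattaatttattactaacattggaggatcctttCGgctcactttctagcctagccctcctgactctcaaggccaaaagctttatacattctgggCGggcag
Zbed3 (chr13:95324575-95324824, plus strand): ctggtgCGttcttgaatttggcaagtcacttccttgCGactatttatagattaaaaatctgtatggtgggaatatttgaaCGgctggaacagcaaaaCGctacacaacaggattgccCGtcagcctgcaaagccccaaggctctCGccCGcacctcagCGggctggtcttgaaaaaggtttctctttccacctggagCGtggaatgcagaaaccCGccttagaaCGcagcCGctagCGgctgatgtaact
Isl1 (chr13:116309689-116309938, minus strand): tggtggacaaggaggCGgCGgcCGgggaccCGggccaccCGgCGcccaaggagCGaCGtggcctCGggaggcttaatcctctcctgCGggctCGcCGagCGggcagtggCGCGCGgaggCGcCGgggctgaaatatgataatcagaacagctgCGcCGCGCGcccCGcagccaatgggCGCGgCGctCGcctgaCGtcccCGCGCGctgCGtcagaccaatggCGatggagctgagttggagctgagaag
Syk (chr13:52583187-52583436, plus strand): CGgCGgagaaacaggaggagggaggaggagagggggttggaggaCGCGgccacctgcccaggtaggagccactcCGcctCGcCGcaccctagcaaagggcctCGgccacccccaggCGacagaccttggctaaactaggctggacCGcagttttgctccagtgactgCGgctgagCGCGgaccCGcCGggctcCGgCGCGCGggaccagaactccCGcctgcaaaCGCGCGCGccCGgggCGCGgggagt
These 5 stretches held 10, 6, 13, 33 and 27 CG dinucleotides in the order printed. Over whole windows the median was 16 in the 10 Control-only windows, 22 in the 430 windows called in every library and 4 in the 364 windows without a call. The letters GGGCGG, searched on both strands, were in 4 of the 10 Control-only windows, 64.4% of the windows called in every library and 21.4% of those without a call. The letters TGTTCT, the half-site of androgen and glucocorticoid receptor elements, were in 4 of the 10, 10.7% of those called in every library and 20.9% of those without a call. Over all 32851 promoter windows of the genome the shares were 35.7% and 19.0%, but these windows also include genes that are not protein-coding, unlike those of chromosome 13 counted here. The 2 Marveld2 windows overlap and both hold both motifs, so each motif was in windows of 3 of the 9 genes.

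Gas1 encodes a membrane-anchored co-receptor for Hedgehog ligands. Its region, chr13:60175542-60178990, spans 3449 bp around the start and was called in 0 of 8 SPOPmut libraries and in 8 of 8 Control libraries. Its within-list percentile, the rank of its best peak by the authors' column 7 signal among all peaks of that library, was between 94.6 and 98.2 in the Control lists, among the strongest regions of each Control library. The region over the Mef2c start shown above, chr13:83523619-83525223, lay between percentiles 60.4 and 82.4 in the Control lists. Mef2c, a transcription factor of muscle, neural and lymphoid development, had 2 further Control-only regions assigned to it, 63406 and 58193 bp from its body. They lay 826 and 2640 bp from starts of another gene, C130071C03Rik. The first of them, chr13:83729303-83731667, had a median percentile of 88.3. Isl1, a LIM homeodomain factor, had its Control-only region at chr13:116309311-116310290, with percentiles of 73.2 to 78.8. The Syk region, chr13:52582440-52583809, had percentiles of 59.6 to 82.1 in the Control lists. Syk is a tyrosine kinase of immune receptor signalling, the start shown is 1 of its annotated starts, and over the whole gene the genotypes differed by 0.12 of 15 regions. The Zbed3 region, chr13:95324293-95325953, had percentiles of 55.8 to 81.9 in the Control lists.

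Away from gene starts, the Control-only region with the highest median percentile, 90.4, was chr13:72639281-72640731, 5810 bp from Irx2, an Iroquois homeobox gene. Among SPOPmut-only regions the highest were chr13:31435532-31436697 with a median percentile of 74.9 in the SPOPmut lists, chr13:74617069-74618056 at Gm46430 with 72.0, and chr13:71588186-71589116 with 62.1. No protein-coding gene lay within 100 kb of the first and the third of these.

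Chromosome 13 took a smaller share of the called regions in every SPOPmut library than in any Control library. The share was 4.50, 4.55, 4.54 and 4.60% in the 4 SPOPmut libraries with DHT and 4.50, 4.46, 4.49 and 4.49% in the 4 SPOPmut libraries with EtOH. It was 5.14, 5.14, 5.17 and 5.19% in the Control libraries with DHT and 5.19, 5.19, 5.14 and 5.16% in those with EtOH. The means were 4.52% ± 0.044 in SPOPmut and 5.16% ± 0.022 in Control (SD, n = 8 each), a share lower by 12.5% of the Control value. Other chromosomes differed too, with -15.5% on chromosome 14, -8.83% on chromosome 8, 19.9% on chromosome 2 and 17.6% on chromosome 15. A share is relative to the calls on all chromosomes, so a larger share of some goes with a smaller share of others. Of the chromosome's regions, 1842 (46.5%) were called in all 16 libraries, against 49.0% of the regions of the other chromosomes. The members just inside the limit, 209 regions called in exactly 2 libraries, had a median width of 321 bp and a median percentile of 6.93 where called. The 330 regions just outside it, called in 1 library, had a median width of 279.5 bp and a median percentile of 4.64.

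**Figure D1:**
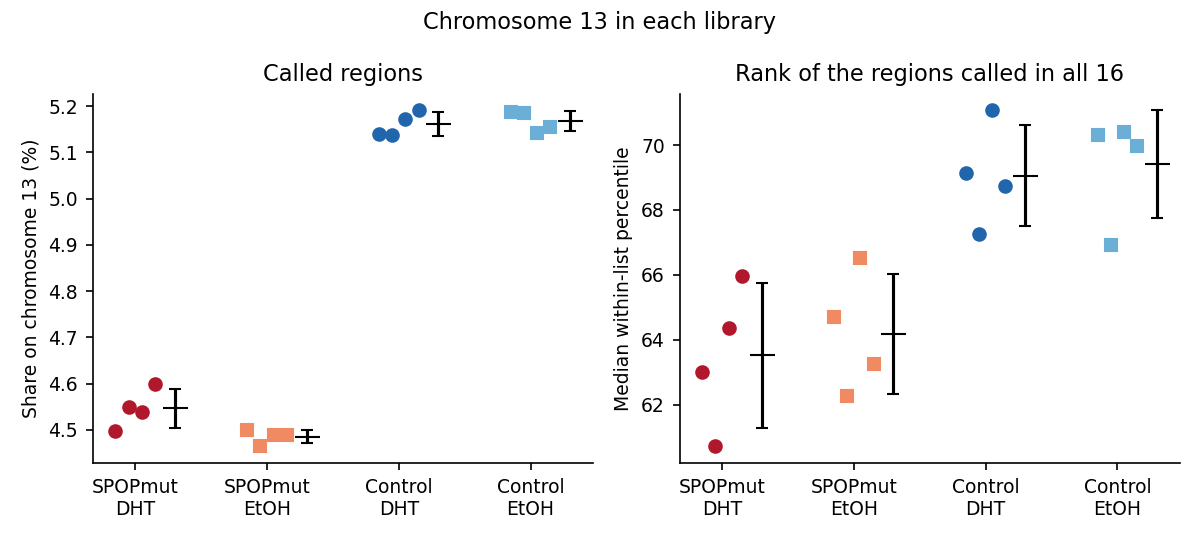
Left, the share of each library's called regions that lie on chromosome 13, in percent. Right, the median within-list percentile of the 1842 chromosome 13 regions called in every library. Each point is a library and the bar beside it gives the group mean ± SD (n = 4). In both panels every SPOPmut library lies below every Control library, and neither vertical axis starts at 0.

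The regions that stayed called in all 16 libraries also ranked lower in SPOPmut. Their median percentile was 60.7 to 66.0 in SPOPmut with DHT, 62.3 to 66.5 in SPOPmut with EtOH, 67.3 to 71.1 in Control with DHT and 66.9 to 70.4 in Control with EtOH. Over the regions called in every library on the other chromosomes it was 63.9 to 69.5, 66.1 to 69.4, 63.7 to 66.98 and 63.5 to 68.0 in the same order, where the genotypes overlapped. Region by region, the shift (SPOPmut mean minus Control mean of the percentile) had a median of -3.74 points, with quartiles of -9.96 and -0.19. The median was 0.49 over the other chromosomes pooled, which moved in both directions. Taken singly, chromosomes 14 and 4 had lower medians than chromosome 13, -6.06 and -4.17 points, and chromosome 2 had the highest, 7.82 points. On chromosome 13 the shift was below 0 in both treatments for 1273 regions (69.1%, against 40.0% on the other chromosomes pooled). It was above 0 in both for 338 (18.3%, against 46.2%). The percentiles of the genotypes did not overlap in either treatment for 593 regions lower in SPOPmut (32.2%, against 17.2% over all 39300 regions called in every library) and for 115 higher in SPOPmut (6.24%, against 18.7%).

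The shift had a smaller median at gene ends than away from genes, though a larger part of the gene-end regions went down. Its median was -2.19 points in 342 regions within 1 kb of a gene end, -3.29 points in 592 regions inside gene bodies and -5.38 points in 908 regions outside genes. It was below 0 in both treatments for 77.5%, 65.5% and 68.3% of them in the same order, against 35.1%, 40.8% and 42.2% on the other chromosomes. Regions with a mean percentile of 75 to 100, whose room to move differs from that of weaker regions, had a median of -2.27 points, and those of 25 to 50 had -6.67 points. Chromosome 13 itself has fewer gene-end regions (10.9%) and more outside genes (55.2%) than the other chromosomes (14.8% and 42.0%).

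Along the chromosome the lower rank was spread over its whole length, while the lower share of calls was uneven. In 5 Mb bins, 23 of 25 had at least 20 regions called in every library, and the median rank shift was below 0 in both treatments in all 23 of them, from -7.89 points in bin 4 (bases 15000001 to 20000000) to -2.58 points in bin 10. The same held for all 17 such bins of chromosome 14 and all 24 of chromosome 8, and for 0 of 34 on chromosome 2. The share of called regions was lower in every SPOPmut library than in every Control library, in both treatments, in 16 of the 23 bins of chromosome 13 (69.6%, against 31.6% of 443 such bins of the genome), and higher in both in 0 (against 25.1%). The largest differences were -23.8% in bin 13 (60000001 to 65000000, which holds Gas1), -23.7% in bin 6, -22.7% in bin 9, -22.6% in bin 16 and -21.6% in bin 12. Bins 22 to 24 (105000001 to 120000000, which hold Pde4d, Map3k1, Il6st, Fst, Itga2 and Isl1) had calls near the Control level, with differences of 3.24%, -0.99% and 0.44%, as did bins 3 and 14 with -1.61% and -3.51%. In bin 22 the share was higher in every SPOPmut library with DHT than in every Control library with DHT, and with EtOH the genotypes overlapped. Of the 116 regions of bin 22, 47 belonged to Pde4d. Mean called regions in the bin were 86.25 and 81.5 in SPOPmut with DHT and EtOH, and 76 and 81 in Control. At Pde4d alone they were 38.75, 34.25, 26.25 and 27 in the same order. The SPOPmut excess in mean counts was thus larger at Pde4d than in its whole bin, in both treatments. The rank shift in bins 22 to 24 was still -2.79, -2.82 and -4.01 points.

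**Figure D2:**
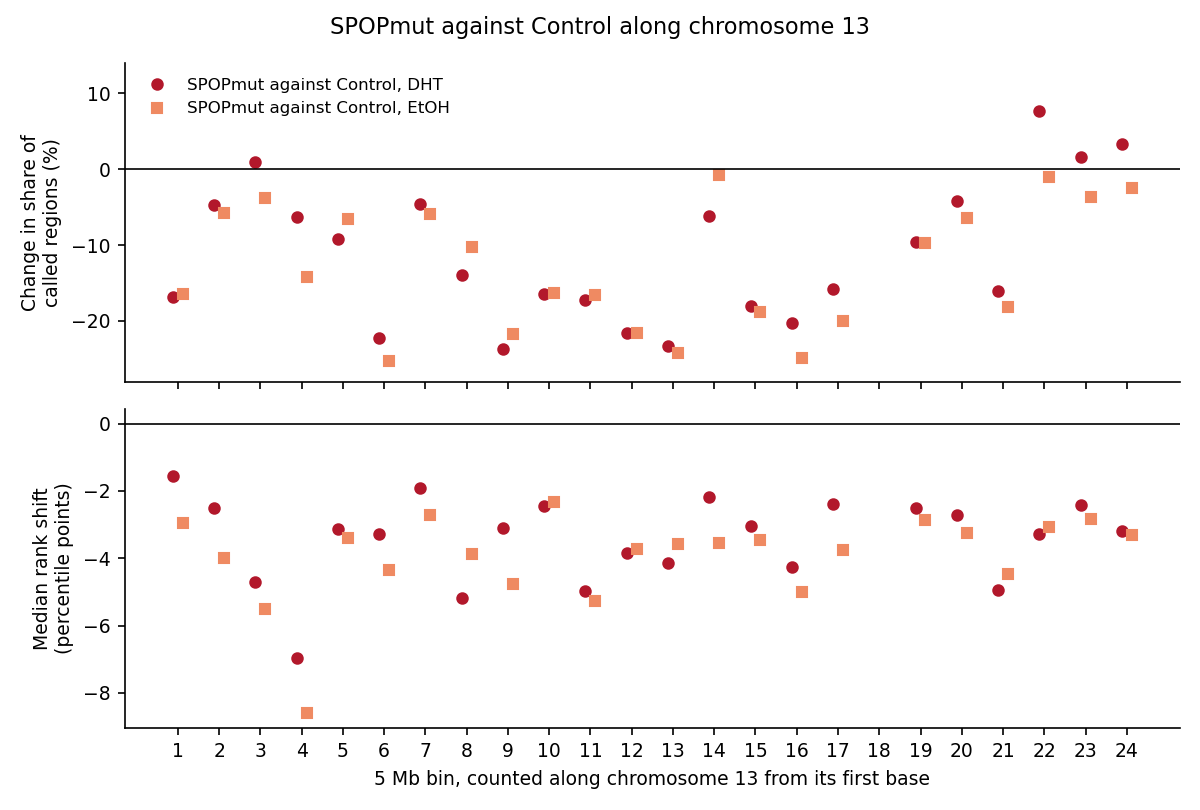
SPOPmut against Control in 5 Mb bins, numbered along chromosome 13. Top, the difference in the share of called regions, in percent of the Control value. Bottom, the median rank shift in percentile points. Circles are organoids with DHT and squares those with EtOH, and only the 23 bins with at least 20 regions called in every library are drawn. Shares range from -23.8 to 3.24% as a mean of both treatments, and all rank shifts are below 0.

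Breakpoints were searched in the rank shift alone, not in the calls, and each split took up a small part of the spread between single regions. A least-squares search for the best split into 2 parts of at least 50 regions placed it at 108813336, with a mean rank shift of -5.37 points before it and -2.02 points after it, and this split took up 0.76% of the sum of squares. Without single libraries, it moved to 103978065 for 5 of 16. In 8 searches, 1 for each SPOPmut library against the Control mean of its treatment, the position lay between 103978065 and 108813336 and took up 0.476 to 0.814%; these searches share the Control libraries. On chromosome 2, where SPOPmut regions ranked higher, the same search gave positions between 24944499 and 27677178 and 2.56 to 4.96%. With 3 parts, the search marked a stretch of stronger shift from 101092838 to 103978065, with a mean of -10.7 points, and took up 1.47%. With 4 parts it no longer set that stretch apart and marked a different one, from 51318317 to 52651987. This one had a mean of -12.2 points, and the 4-part split took up 1.84%.

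Regions with fully separated calls followed the same direction. In all 8 SPOPmut libraries and no Control library there were 41 regions (1.03%, against 2.23% over all regions), and in all 8 Control libraries and no SPOPmut library there were 132 (3.33%, against 2.02%). Within DHT alone the counts of regions in all 4 SPOPmut and no Control libraries, and the reverse, were 173 and 270 (4.36 and 6.81%, against 6.41 and 4.22%). Within EtOH they were 111 and 300 (2.80 and 7.57%, against 4.84 and 4.36%). At most 2 neighbouring regions were separated in the same direction, which happened for 3 SPOPmut-only pairs (nearest to Gdi2, Snrnp48 and Pde4d) and 14 Control-only pairs (among them those nearest to Mef2c, Edn1, Stmnd1 and Adamts16 of the protein-coding genes). Bin 21 (100000001 to 105000000) held the most Control-only regions, 16, and bin 22 the most SPOPmut-only regions, 6, of which 5 belonged to Pde4d.

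**Figure D3:**
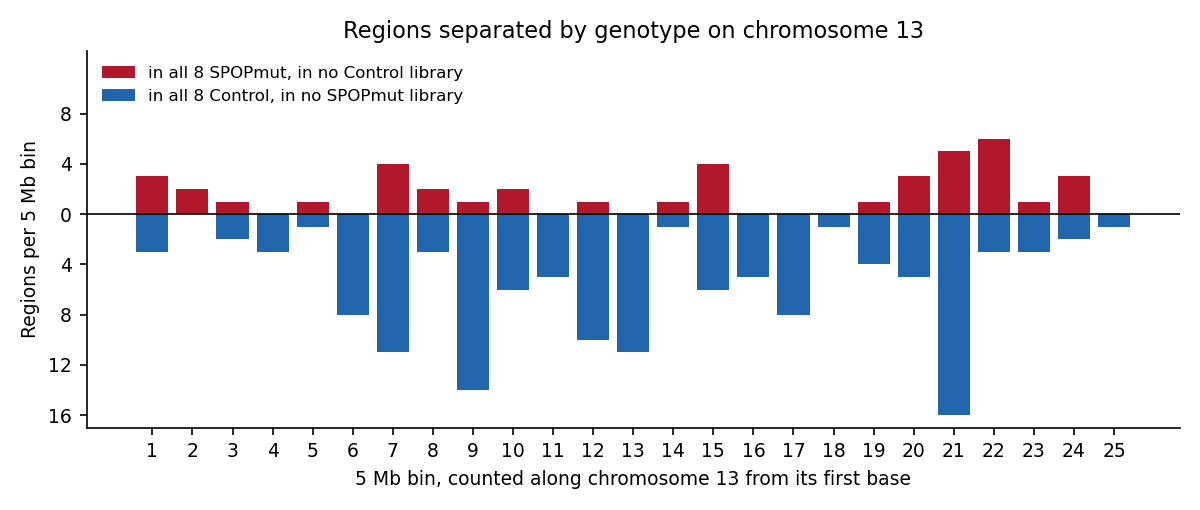
Number of chromosome 13 regions in each 5 Mb bin with calls in each of the 8 SPOPmut libraries and 0 Control libraries (bars above the line), or in each of the 8 Control libraries and 0 SPOPmut libraries (bars below it). Control-only regions reach 16 in bin 21 and 14 in bin 9, and SPOPmut-only regions reach 6 in bin 22.

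By gene, each region went to the nearest protein-coding gene body within 100 kb, which placed 3148 of the 3964 regions (79.4%), and 428 genes of the chromosome had at least 2 regions. The mean number of called regions was lower in SPOPmut for 249 of them (58.2%, against 34.8% of all 11213 genes), higher for 126 and equal for 53. In both treatments every SPOPmut library had fewer called regions than every Control library for 33 genes (7.71%, against 4.66% of all genes) and more for 13 genes (3.04%, against 7.90%). With lists cut to equal length these counts were 61 and 13, and with shares of called regions in place of counts they were 66 and 18.

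Nedd9, a docking protein of focal adhesions, had the largest negative difference among genes whose groups did not overlap. It had 13, 12, 15 and 14 called regions in SPOPmut with DHT and 14, 16, 16 and 15 in SPOPmut with EtOH. In Control it had 21, 21, 21 and 24 with DHT and 24, 21, 25 and 26 with EtOH, a mean difference of -8.50 regions of 26. The nucleoside transporter gene Slc28a3 had 2, 3, 3 and 3 regions in SPOPmut with DHT and 2, 3, 2 and 3 with EtOH, against 12, 11, 13 and 12 in Control with DHT and 11, 8, 11 and 10 with EtOH. The mean difference was -8.38 regions, and -4.25 with the lowest 25% of each list left out. The highest SPOPmut library had 3 of its 14 regions and the lowest Control library 8, and 3 of the regions were called in Control alone, in each of its 8 libraries. Adtrp, a hydrolase first described as androgen-dependent, had 4, 3, 5 and 5 regions in SPOPmut with DHT and 4, 2, 4 and 3 with EtOH, against 12, 9, 13 and 13 in Control with DHT and 14, 11, 10 and 14 with EtOH. The metalloproteinase gene Adamts16 had 1, 3, 3 and 4 regions in SPOPmut with DHT and 6, 5, 6 and 6 with EtOH, against 9, 9, 10 and 11 in Control with DHT and 15, 12, 14 and 14 with EtOH.

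Ly86 and Cd180, whose proteins form one receptor complex of B cells and macrophages, both had fewer regions in SPOPmut, with differences of -6.50 of 22 and -3.88 of 10. With regions within 25 kb of a gene these were -3.50 and -0.38. Mast4, a microtubule-associated kinase gene, differed by -6.25 of 36 regions, Mctp1, a calcium-binding membrane protein gene, by -5.62 of 10, Stmnd1, a stathmin-domain gene, by -4.50 of 6, and Ofcc1 by -4.0 of 19. Within 25 kb the differences at Stmnd1 and Ofcc1 were -1.12 and -2.0, and Stmnd1 had -2.62 without the lowest 25% of each list. Pik3r1, the regulatory subunit of phosphoinositide 3-kinase, differed by -4.38 of 17 regions, and its 5 regions called in every library had a median rank shift of -15.8 points. The largest mean difference of the named genes was that of the aminopeptidase gene Aopep, -10.75 of 63 regions, with 42, 37, 40 and 45 in SPOPmut with DHT and 40, 39, 41 and 40 with EtOH, against 49, 45, 54 and 56 in Control with DHT and 55, 46, 52 and 53 with EtOH. Its groups touched with DHT, where the highest SPOPmut library and the lowest Control library both had 45.

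Pde4d went against the rest of the chromosome. It had 36, 36, 40 and 43 called regions in SPOPmut with DHT and 34, 36, 34 and 33 with EtOH, against 27, 23, 28 and 27 in Control with DHT and 29, 24, 28 and 27 with EtOH. All 8 SPOPmut libraries were above all 8 Control libraries, by a mean of 9.88 regions. The gene has 47 regions, 46 of them inside its body (bases 108654177 to 109955969). Of these, 5 were SPOPmut-only (called in 8 of 8 libraries against 0 of 8), with a median percentile of 42.1, between 109315523 and 109704990, and 1 was Control-only. With DHT alone 12 regions were SPOPmut-only, and with EtOH alone 7. Its 16 regions called in every library had a median rank shift of 1.74 points, higher in SPOPmut in both treatments for 7 and lower in both for 5, a smaller move than that of the calls. With the weakest peaks (the lowest 25% of each list) left out the difference in Pde4d calls was 7.0 regions.

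The other genes that went against the chromosome without overlap between the genotypes had smaller differences. Fst, which encodes the activin antagonist follistatin, had 8, 7, 8 and 9 regions in SPOPmut with DHT and 7, 6, 7 and 8 with EtOH, against 5, 4, 4 and 4 in Control with DHT and 5, 5, 4 and 4 with EtOH. Its mean difference was 3.12 regions, and 1.0 with the lowest 25% of each list left out. Naip6, Naip1 and Ocln lie within bases 100281121 to 100552718. Naip6 and Naip1, sensors of bacterial proteins, differed by 3.25 and 3.00 of 5 regions each, and Ocln, the tight junction protein occludin, by 2.12 of 7. The placental prolactin-family gene Prl2c5 differed by 2.50 of 6 regions, the minor spliceosome gene Snrnp48 by 2.25 of 6, the kinase gene Prpf4b by 2.12 of 5, the translesion polymerase gene Polk by 1.5 of 6 and the Rab regulator Gdi2 by 1.12 of 6. With the lowest 25% of each list left out Prl2c5 differed by 0.75 and Gdi2 by 1.88, and with regions within 25 kb Naip6 differed by 1.5, Prpf4b by 0.62 and Gdi2 by 2.0. Larger differences whose groups overlapped were those of Ror2, a receptor tyrosine kinase of Wnt signalling, with 4.38 of 19 regions, and Gmds, an enzyme of GDP-fucose synthesis, with 3.50 of 59 (2.21 without replicate 4 of SPOPmut with DHT, and 1.5 without the lowest 25% of each list), both named after their values were seen. Ror2 had 15, 11, 14 and 16 regions in SPOPmut with DHT and 12, 8, 14 and 12 with EtOH, against 8, 7, 9 and 7 in Control with DHT and 8, 8, 11 and 9 with EtOH. Naip and Prl2c genes are families of similar copies, so reads can be shared among them and their values are uncertain. Snrnp48 held both directions, with 2 SPOPmut-only regions and 3 regions called in every library that all ranked lower in SPOPmut in both treatments. So did Gdi2, with 2 SPOPmut-only regions and 2 such lower ones, and Prpf4b, with 1 and 1. At Prl2c5 the 1 region called in every library also ranked lower. At Fst the 1 such region ranked higher, at Ocln 1 of 2 did and 0 ranked lower, and at Polk 2 ranked higher and 2 lower.

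**Figure D4:**
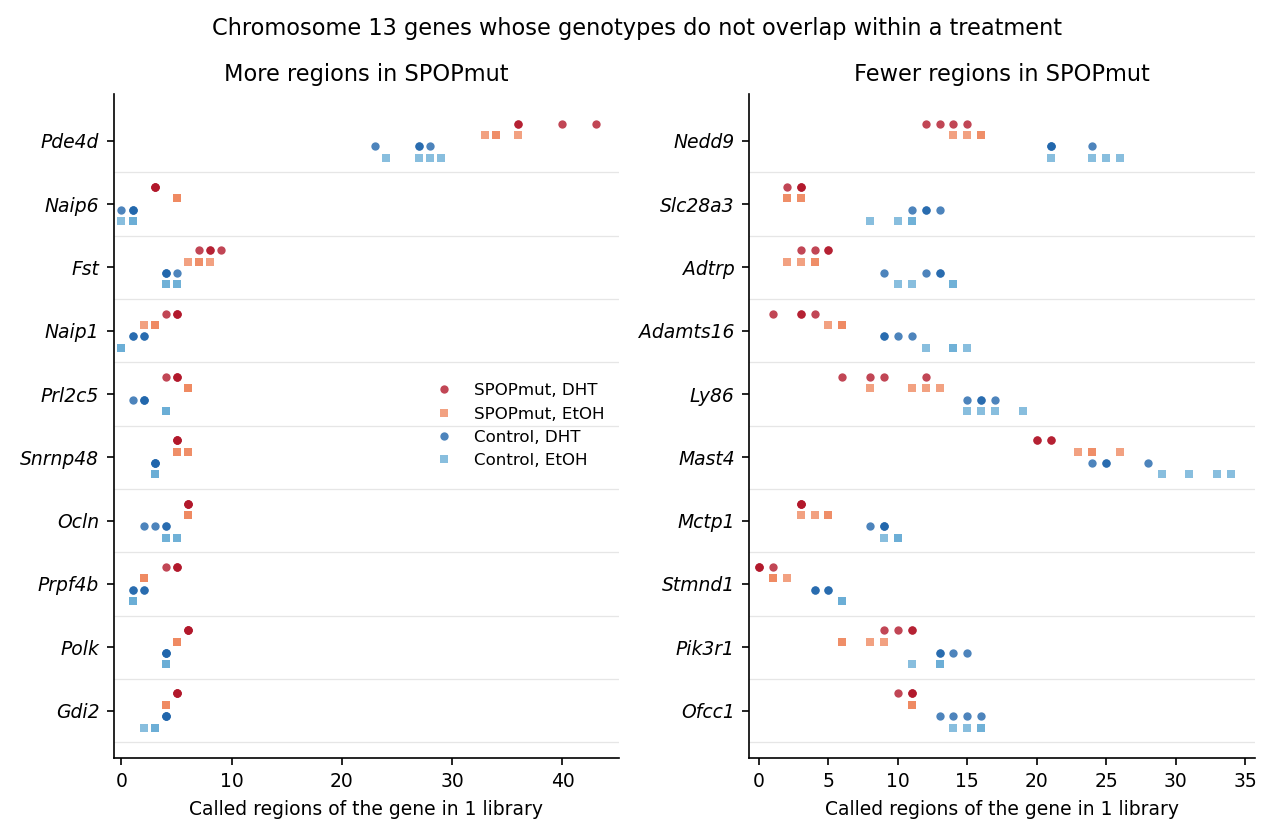
Called regions per library (horizontal axis, counts) at the 10 chromosome 13 genes with the largest positive (left) and the 10 with the largest negative (right) difference between SPOPmut and Control among those whose genotypes do not overlap in either treatment. Circles are DHT and squares EtOH, with SPOPmut above Control within each gene, and each point is a library (n = 4 per group). Pde4d has 33 to 43 regions in SPOPmut and 23 to 29 in Control, and Nedd9 has 12 to 16 in SPOPmut and 21 to 26 in Control.

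In rank, 98 genes had at least 5 regions called in every library, and the median shift was below 0 in 83 of them and above 0 in 15. The limit of 5 was set after the values were seen. No such count over the genes of the other chromosomes is given, so these numbers have no genome-wide share beside them. The lowest medians were those of Diras2 with -19.7 points over 6 regions, Ofcc1 with -16.2 over 9 and Pik3r1 with -15.8 over 5. The highest were those of Srd5a1 with 7.44 over 6, Gtpbp4 with 7.0 over 5 and Ripor2 with 6.10 over 10. All 6 Srd5a1 regions were called in all 16 libraries, and 4 of them ranked higher in SPOPmut in both treatments and 2 lower. Dsp differed little in count and more in rank. Dsp, which encodes the desmosomal protein desmoplakin, had 12, 12, 12 and 14 regions in SPOPmut with DHT and 12, 12, 12 and 11 with EtOH, against 12, 13, 15 and 12 in Control with DHT and 12, 11, 13 and 12 with EtOH. Of its 10 regions called in every library, 9 ranked lower in SPOPmut in both treatments. The zinc finger factor gene Klf6 differed by 1.5 regions with DHT and by -2.25 with EtOH, and had 10 of 11 such regions lower in both treatments. The exact permutation test of the difference between its DHT effects gave an unadjusted p of 0.00245 and an adjusted p of 0.511.

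Among 9 lists of chromosome 13 genes, most members overlapped between the genotypes. Of 21 receptor, ligand and signalling genes, 1 was higher in SPOPmut (Fst) and 6 lower (against 7.90% and 4.66% of all genes, which also holds for the lists that follow), among them Pik3r1, Mast4, Il6st, the gp130 receptor subunit (-1.38 regions, and -0.25 without the lowest 25% of each list), and Elmo1, an engulfment adaptor with 0 to 2 regions in SPOPmut and 2 to 5 in Control and a difference of -1.38 in place of -3.25 without the lowest 25% of each list. The list's median difference was -0.62 regions, against 0 over all genes. Of 20 transcription factors of development, 0 were higher and 2 lower, Mef2c by -3.75 of 11 regions (-1.75 within 25 kb) and the Iroquois gene Irx1 by -3.12 of 5 (-2.0 without the lowest 25% of each list), and 15 had a lower mean. Of 8 adhesion and barrier genes, 1 was higher (Ocln) and 1 lower (Nedd9). Of 12 cell cycle and DNA repair genes, 1 was higher and 2 lower, of 10 stromal, neural and immune genes 0 and 2 (Ly86 and Cd180), and of 2 cyclic nucleotide enzyme genes 1 (Pde4d) and 0. None of 5 steroid-converting enzyme genes, 3 sterol synthesis genes or 4 elongation and androgen response genes had genotypes that did not overlap in either direction. Their members included Srd5a1 and the elongation factor gene Ell2, with a difference of -3.12 of 19 regions (-1.62 within 25 kb). The list of steroid-converting enzymes leaves out Hsd17b3, whose genotypes did not overlap, as given with its DHT values. Of the Hedgehog pathway, the receptor gene Ptch1 differed by 1.12 of 9 regions (-0.12 with regions within 25 kb of a gene and 0.12 without the lowest 25% of each list) and the transcription factor gene Gli3 by -2.0 of 31, and both overlapped. The kinase gene Map3k1 differed by 1.38 of 14 regions (0.5 within 25 kb) and also overlapped, and Fgf10, a growth factor of prostate mesenchyme, had fewer than 2 regions and was not tested.

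No effect of DHT on the chromosome's share of calls passed the test. The share of called regions was 4.55% ± 0.042 in SPOPmut with DHT and 4.49% ± 0.015 in SPOPmut with EtOH, and 5.16% ± 0.026 in Control with DHT and 5.17% ± 0.022 in Control with EtOH (SD, n = 4 each). The mean difference of 0.027 percentage points had an adjusted p of 0.184 in an exact permutation test of treatment within genotype (two-sided, 4900 arrangements), which called 6 of 21 chromosomes (28.6%). The difference was 0.061 points in SPOPmut and -0.0067 points in Control, and the test of that contrast gave an adjusted p of 0.171 in the same exact permutation.

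Single regions and genes did pass the test for DHT. Over all 16 libraries 80 regions rose with DHT (2.02%, against 1.51% over all regions) and 13 fell (0.328%, against 0.259%), each with an adjusted p of 0.0231 by an exact stratified test. All 93 of them were called in all 8 libraries of one treatment and in none of the other. The regions that rose with the highest median percentiles were chr13:115805673-115806962 with 87.1, chr13:52805206-52806514 near Auh with 85.9 and chr13:42509190-42510917 with 85.0. Those that fell were weaker, with 47.4 at chr13:29786317-29786841 in Cdkal1, 43.1 at chr13:101016002-101016642 and 41.7 at chr13:6077344-6077767. Bin 9 held 11 of the regions that rose, the most of any bin. Within SPOPmut 211 regions were called in all 4 DHT and no EtOH library and 86 in the reverse (5.32 and 2.17%, against 4.70 and 1.98%). Within Control they were 148 and 92 (3.73 and 2.32%, against 2.93 and 1.96%), each share somewhat above that of all regions.

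Of the 428 genes, 23 rose with DHT (5.37%, against 5.41% of all genes) and 16 fell (3.74%, against 3.14%) by the exact permutation test. Without replicate 2 of Control with EtOH, 25 genes fell, and with shares of called regions in place of counts 48 rose and 50 fell. Edn1, the vasoconstrictor peptide endothelin 1, had 16, 18, 18 and 19 regions in SPOPmut with DHT and 14, 13, 13 and 13 with EtOH, and 22, 19, 24 and 21 in Control with DHT and 17, 15, 17 and 17 with EtOH. DHT libraries were above EtOH libraries in both genotypes, by a mean of 4.75 regions (adjusted p = 0.0119, permutation test). Cdkal1, a tRNA-modifying enzyme gene, also rose by 4.75 regions (adjusted p = 0.0256, permutation test), with 29, 29, 33 and 32 in SPOPmut with DHT and 26, 23, 25 and 24 with EtOH, and 31, 34, 33 and 35 in Control with DHT and 31, 30, 31 and 28 with EtOH. The Control groups touched at 31.

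Syk, Auh and Nfil3 lie beside each other within bases 52582610 to 52982878 and all rose. Syk had 12, 12, 13 and 14 regions in SPOPmut with DHT and 9 in each SPOPmut library with EtOH, and 12, 12, 13 and 12 in Control with DHT and 9, 9, 10 and 9 with EtOH, so neither genotype overlapped between treatments. Auh, a mitochondrial hydratase of leucine breakdown, rose by 4.12 regions and the leucine zipper repressor gene Nfil3 by 2.00 (adjusted p = 0.0119 for all 3 genes, permutation test). Their bin, number 11, had the largest DHT difference of the chromosome, 0.021 percentage points of all called regions (adjusted p = 0.00287, permutation test). Of the 25 bins, 6 rose with DHT (24.0%, against 19.3% of all bins) and 6 fell (24.0%, against 22.7%).

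Transcription factor genes were also among those that rose. Of the 20 tested factors of development, 4 rose and 0 fell with DHT (against 5.41% and 3.14% of all genes): Gli3 by 3.25 regions, Foxq1 by 2.75, Nfil3 by 2.00 and Tfap2a, the AP-2 alpha gene, by 1.88, with adjusted p-values of 0.0119 to 0.0288 in the permutation test. The list's median DHT difference was 0.06 regions, against 0 over all genes. The collagen receptor subunit gene Itga2 rose by 1.12 of 9 regions and the DNA end-joining gene Xrcc4 by 2.12 of 6.

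Falls with DHT that passed were led by Mast4, with 21, 20, 20 and 21 regions in SPOPmut with DHT and 23, 24, 24 and 26 with EtOH, and 24, 25, 28 and 25 in Control with DHT and 34, 29, 33 and 31 with EtOH. The groups did not overlap in either genotype, and the mean difference was -5.00 regions (adjusted p = 0.0119, permutation test). Adamts16 fell by 3.50 regions, Lhfpl2, a tetraspan membrane protein gene, by 2.12, and Hsd17b3, the enzyme that makes testosterone from androstenedione, by 1.88 (adjusted p = 0.0119 each, permutation test). Hsd17b3 had 0, 0, 1 and 1 regions in SPOPmut with DHT and 3 in each SPOPmut library with EtOH, and 3, 2, 3 and 3 in Control with DHT and 4 in each Control library with EtOH. Of its 4 regions 0 lay inside the gene body, and the one that passed the region test for DHT lay 47710 bp from it. Prl2c2 fell by 2.38 regions and the butyrophilin gene Btn2a2 by 1.88 (adjusted p = 0.0288 each, permutation test), both from families of similar copies. Il6st fell by 1.12 of 6 regions, and of the 5 listed steroid-converting enzyme genes, which do not include Hsd17b3, Akr1c18, again 1 of a family of similar copies, fell by 1.00 of 2. Mast4, Adamts16 and Hsd17b3 also had fewer regions in SPOPmut than in Control in both treatments, without overlap, while Naip1 and Gdi2 rose with DHT by 1.75 and 1.12 regions (adjusted p = 0.0119 each, permutation test) and had more in SPOPmut.

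**Figure D5:**
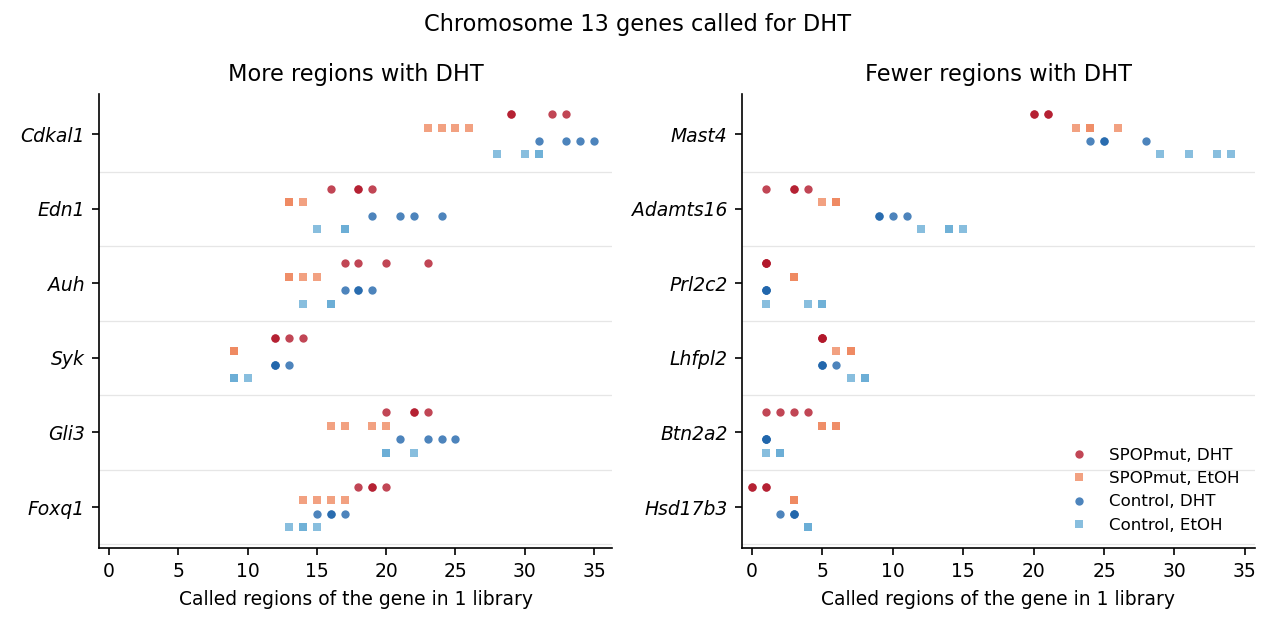
Called regions per library (horizontal axis, counts) at the 6 chromosome 13 genes with the largest rise with DHT (left) and the 6 with the largest fall (right) among those that passed the test. Circles are DHT and squares EtOH, with SPOPmut above Control within each gene, and each point is a library (n = 4 per group). Syk has 12 to 14 regions with DHT and 9 to 10 with EtOH, and Mast4 has 20 to 28 with DHT and 23 to 34 with EtOH.

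Several of these calls depended on weak peaks or on distant regions. With the lowest 25% of each list by column 7 left out, 19 genes rose and 16 fell, but Cdkal1, Edn1, Adamts16, Lhfpl2, Hsd17b3, Prl2c2, Btn2a2, Tfap2a, Itga2, Xrcc4, Gdi2 and Akr1c18 no longer passed (adjusted p of 0.0539 to 1.0, permutation test), and Il6st stood at 0.25 regions. With lists cut to equal length, Il6st, Btn2a2 and Akr1c18 no longer passed (adjusted p of 1.0, 0.117 and 0.0656, permutation test). With regions within 25 kb of a gene, Auh, Gli3, Foxq1 and Nfil3 no longer passed (adjusted p of 0.0719 to 0.405, permutation test).

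No gene had a DHT effect that passed the test of a difference between the genotypes. By the exact permutation test 0 of 11213 genes were called (0.00%), and on chromosome 13 the smallest adjusted p was 0.477. At an unadjusted p under 0.05 there were 33 genes on the chromosome (7.71%, against 7.13% of all genes), and with shares of called regions in place of counts 0 were called as well. Pde4d had 4.50 more regions with DHT than with EtOH in SPOPmut and -0.75 in Control, with an adjusted p of 0.848 for the contrast, by the same permutation.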

How the data were processed

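ATAC-seq peak lists of 16 libraries (4 in each of 4 groups) were used as deposited. Per the submitters' processing notes, reads were handled with Bowtie2 2.3.4.1, SAMtools 1.8 and Genrich on mm10; read counts, depth and caller settings are not given in the sources used here, so no interval was computed. Column 7 of the deposited lists holds a signal (unit not stated) and column 8 the −log10 of a p-value, both the authors' own peak values, used to rank peaks within a list. Peaks were merged, called and ranked as described with the results, and genes came from RefSeq GRCm38.p6.

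Treatment labels were permuted exactly within genotype (4900 arrangements, two-sided, smallest p 0.000408), or regions tested by the stratified hypergeometric distribution, with Benjamini-Hochberg correction over 80352 regions, 11213 genes, 534 bins or 21 chromosomes at an adjusted p under 0.05. A region can pass only if at least 656 regions separate fully. Python 3.11.15 was used, along with SciPy 1.17.1, NumPy 2.4.6, pandas 2.3.3 and Matplotlib 3.10.9, and the code was tested on simulated data.

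The members, gene lists and named genes were chosen with earlier results of these data known. Named genes are the 10 largest rises and drops by genotype without overlap in either treatment, up to 6 called for DHT in each direction, a set listed by name (among them Pde4d, Aopep and Srd5a1), and examples of each list. Diras2, Gtpbp4, Ripor2, Ror2 and Gmds fall outside it and were named after their values were seen, as were the motif searches. Some withheld items are not reported here.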

Additional observations from a re-analysis of the deposited data

Results flagged for a closer look

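Within a group of 4 libraries, the library farthest from the others was marked where its gap to the nearest, over the group's range, exceeded the 95% critical value of Dixon's test. Of 208 groups tested over 50 genes and the library values, 49 (23.6%) had such a library, where chance gives about 1 in 20. In 40 of them the library differed by 1 region from 3 equal ones, which small whole numbers give easily.

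The median percentile of the chromosome 13 regions called in every library was 66.9 in library 2 of Control with EtOH, below the other 3. That library also stood apart at Naip6 (0 regions), Mctp1 (9), Pik3r1 (11), Edn1 (15), Auh (14), Klf6 (14) and Mef2c (10). In the other Control libraries with EtOH, the marked values were 2 at Gdi2, 22 at Gli3, 1 at Btn2a2 and 8 at Itga2 in library 4, 10 at Syk and 7 at Lhfpl2 in library 3, and 4 at Xrcc4 in library 1.

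In SPOPmut with DHT, library 1 had 4 regions at Naip1, 4 at Prl2c5, 2 at Slc28a3, 10 at Ofcc1 and 14 at Tfap2a. Library 2 had 4 at Prpf4b and 15 at Klf6, and library 4 had 1 at Stmnd1, 14 at Dsp and 1 at Akr1c18. In SPOPmut with EtOH, library 1 had 2 at Stmnd1, 14 at Edn1 and 11 at Map3k1, and library 2 had 5 at Adamts16, 14 at Klf6, 7 at Ptch1, 3 at Il6st, 1 at Irx1 and 2 at Akr1c18. Library 4 of that group had 2 at Naip1, 6 at Lhfpl2, 11 at Dsp, 6 at Mef2c, 4 at Cd180 and 6 at Nfil3.

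In Control with DHT, library 1 had 5 regions at Fst, 1 at Prl2c5, 8 at Mctp1 and 6 at Lhfpl2. Library 2 had 2 at Hsd17b3, library 3 had 13 at Syk, and library 4 had 0 at Naip6, 24 at Nedd9 and 15 at Klf6.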

How the results depend on the processing

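The median rank shift and the counts of genotype-separated regions kept their direction under the alternatives run, and of all recomputed main values 333 stayed within the replicate spread or 1.5 times the count and 28 did not. Equal list length gave 37 genes higher and 26 lower with DHT, 61 genes lower in SPOPmut, and the split at 103978065. Column 8 in place of column 7 and regions outside gene bodies also gave 103978065, the second with 1.46% of the sum of squares, against 0.371% inside gene bodies. The SPOPmut share of calls was lower by -13.5% without the lowest 25% of each list, -18.1% where a call had to cover 50% of a region, and -11.6% for regions in 4 or more files. In 10 Mb bins, 2 rose and 1 fell with DHT, and 12 of 12 had a median shift below 0. Regions within 25 kb of a gene gave 15 genes higher with DHT, and shares per gene gave 48 higher, 50 lower and 66 lower in SPOPmut. Direction turned for DHT at Il6st (0.25 regions without the lowest 25%), and for genotype at Tfap2a (-0.25) and Ptch1 (-0.12) within 25 kb and Dsp (-0.62 to 0.12 with single libraries left out, the last without replicate 3 of Control with DHT); the cause was not tested.

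Leaving out each library gave 22 to 30 genes higher and 14 to 25 lower with DHT, and a split at 103978065 to 108813338. Replicate numbers did not pair the libraries: correlations of deviations over 8 pairs ran from -0.32 to 0.22, 3 were over 0.1, and 1 library correlated best with its own number. With the replicate block, 0 regions and 0 genes were called in either direction. The smallest p that its 256 sign flips can give is 0.0078, which passes the correction only where many features reach it. The adjusted p of named genes was 0.149 to 0.161 in this sign-flip test. Without read depth, a region without a call cannot be told from one just under the caller's limit.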
